A study of Homo sapiens with 8 samples.

Results

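U266/LR7 is a melphalan-resistant derivative of U266, an established human multiple myeloma cell line, and its transcriptional response to melphalan is described here from 4 of the 8 arrays of the study. The members were chosen by their labels: 2 U266/LR7 arrays with 100 µM melphalan were set against 2 without it, and each group holds 1 array without and 1 array with miR-221 and miR-222 inhibitors. The control array comes from cells given a negative control oligonucleotide and no drug. The inhibitor array comes from cells given 100 nM of miR-221 and miR-222 inhibitors and no drug. The remaining arrays come from cells given melphalan alone and from cells given melphalan with the inhibitors. RNA was taken 12 h after treatment. The other 4 arrays hold the same treatments in U266/s, the parental line, and are used for the common error estimate and for the comparison of the lines.

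Each condition has 1 array, so the 2 arrays of a group differ in inhibitor treatment and are not replicates of 1 condition. Nothing in the labels says whether the arrays came from separate cultures, so the p-values speak of the spread among the arrays alone, part of which may be technical. The labels also disagree about the melphalan-alone array. Its transfection tag reads none, whereas the protocol reads as if every culture without inhibitors received the control oligonucleotide. If the tag is right, the pair without inhibitors compares untransfected with transfected cells. The pair with inhibitors holds no such difference, so both pair differences are given for the main results. U266/LR7 is 1 resistant line, and the making of its resistance is not described in the labels used.

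Melphalan is a nitrogen mustard that alkylates guanine and crosslinks the strands of DNA. Bulky lesions and crosslinks in a transcribed strand stall RNA polymerase II, and transcription resumes after the lesion is removed, chiefly by nucleotide excision repair. The polymerase is released from its pause near the start of a gene by the kinase P-TEFb, which is held inactive by HEXIM1 and the 7SK RNA. Damage also activates checkpoint kinases and p53, which hold cells before or during DNA replication and before mitosis. Melphalan enters cells through amino acid transporters and is conjugated to glutathione. The microRNAs miR-221 and miR-222, which the inhibitors target, share a seed and repress among others the cell cycle inhibitor CDKN1B and the death genes BBC3 and BMF. Their mature forms are shown because 2 of the 4 arrays carry their inhibitors; the mature sequences lie on chromosome X (GRCh38.p14, RefSeq), on the minus strand, at chrX:45746180-45746202 and chrX:45747036-45747056. Capitals mark the seed, bases 2 to 8, which is the same in both.
hsa-miR-221-3p: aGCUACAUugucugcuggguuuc
hsa-miR-222-3p: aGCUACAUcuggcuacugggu
The clusters of the genes MIR221 and MIR222 had low signal on all 4 arrays, between 5.01 and 5.27 log2 units for MIR221 and between 4.04 and 4.36 for MIR222, and melphalan differences of -0.18 ± 0.18 and 0.21 ± 0.43 (SE). Neither passed the test.

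The 4 arrays were alike in scale and held a plasma cell profile. Their interquartile ranges lay between 3.62 and 3.71 log2 units, and their correlations over 18417 genes lay between 0.986 and 0.996. The arrays with melphalan correlated at 0.996 and those without it at 0.991. The mean signal of 26 plasma cell genes was 9.52, 9.35, 9.41 and 9.30 on the control, melphalan, inhibitor and combination arrays. Means of the lists of other cell types (B-cell; T and NK cell; myeloid; stromal and epithelial; erythroid and platelet markers) lay between 5.42 and 6.53. In those lists 0 of 11, 0 of 18, 1 of 14, 0 of 15 and 1 of 8 measured members were called. Over all genes 6.62% were called. The called members were CD14 (0.55) and EPOR (0.77), and 0, 1, 4, 2 and 1 members had an unadjusted p under 0.05 by limma. Over all 18417 genes this held for 3703.

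Melphalan changed 1220 of 18417 genes in U266/LR7, 6.62% of those tested (limma, adjusted p under 0.05, the meaning of "called", "rose" and "fell" throughout). Of these, 556 rose (3.02%) and 664 fell (3.61%). Falls were larger: 211 genes fell and 45 rose by at least 2-fold, which is 1 on the log2 scale. All 1220 called genes moved the same way in both pairs, as did 63.4% of all genes. A call rests on the mean of these same 2 differences and on their spread, so agreement among called genes is largely built in. Across all genes the pair differences had a Pearson r of 0.555 and a Spearman rho of 0.418, as a description, since genes are not independent. The median difference over all genes was 0.049. With cyclic loess normalization 332 genes rose and 753 fell, so the higher share of 45.6% became 30.6%. In a fit of the 4 U266/LR7 arrays alone 843 genes were called, 780 of them among the 1220. Leaving out 1 array changed both the number of called genes and which genes were called.

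**Figure D1:**
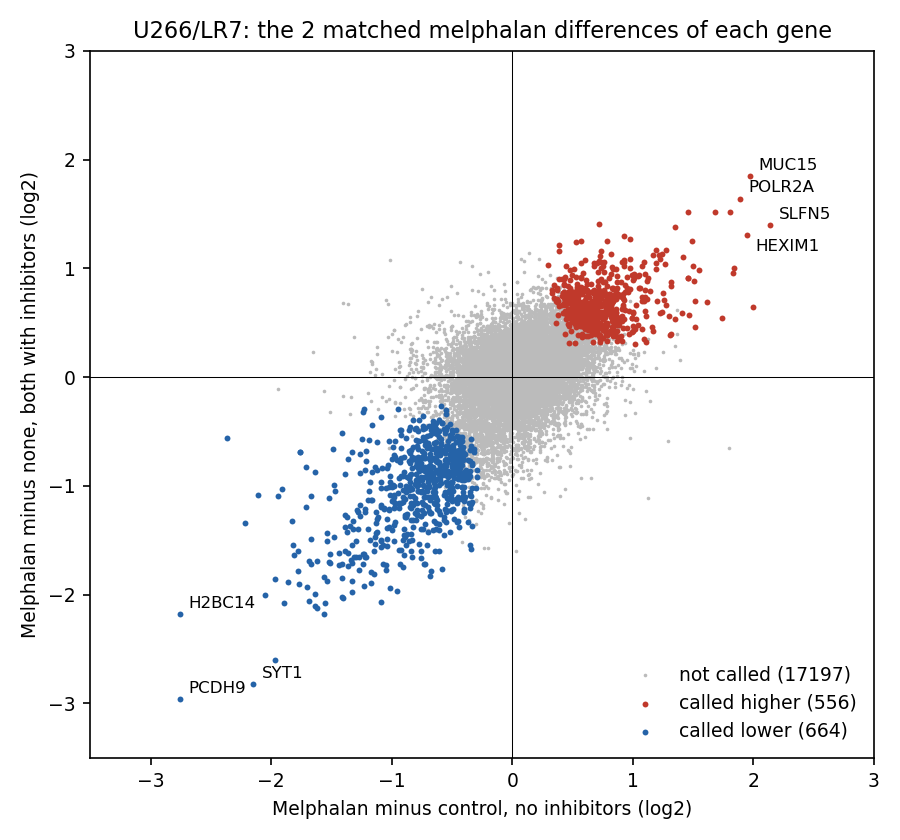
Each point is 1 of 18417 genes in U266/LR7, with the melphalan difference without inhibitors on the horizontal axis and with inhibitors on the vertical axis, both in log2 units. The 556 genes called higher (red) all lie in the upper right and the 664 called lower (blue) all in the lower left, with PCDH9, SYT1 and TMEM117 farthest down.

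The genes that fell were long, and those that rose were short. Genomic span, the length of a gene from its first to its last annotated base in RefSeq (GRCh38), had a median of 219.3 kb among 650 protein-coding genes that fell. It was 13.8 kb among 536 that rose and 26.5 kb among 15713 that were not called. Of the genes that fell, 550 (84.6%) spanned at least 100 kb, against 18.2% of all 16899 protein-coding genes tested. Of the genes that rose, 2 (0.4%) did. These were CCND3, the cyclin D3 gene (115.10 kb, 0.69 ± 0.14), and CYP19A1, the aromatase gene (130.54 kb, 0.60 ± 0.15). The annotated span can be longer than the transcript a cell makes, since it covers every annotated isoform.

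The share of genes that fell climbed with span. Among 8852 protein-coding genes with signal above that of the median gene, 2.5% fell at 50 to 100 kb, 16.5% at 100 to 200 kb, 61.2% at 200 to 500 kb and 77.8% (42 of 54) at 500 kb and over. Of 420 such genes of at least 200 kb, 63.3% fell, 0 rose and 378 (90%) were lower in both pairs. Their median difference was -0.63 in the pair without inhibitors and -0.92 in the pair with inhibitors. Under 10 kb 7.47% rose and 1.1% fell. At or below the median signal the same order appeared in smaller shares, with 11% of 875 genes of at least 200 kb lower and 0 higher. Spearman's rho between span and melphalan difference across the 8852 genes was -0.243 in the pair without inhibitors and -0.611 in the pair with inhibitors. Over all 1295 genes of at least 200 kb 362 fell, 192 without the melphalan array, 239 without the inhibitor array and 142 without the combination array. The median span of falling genes stayed between 173.7 and 322.7 kb in every setting tried.

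**Figure D2:**
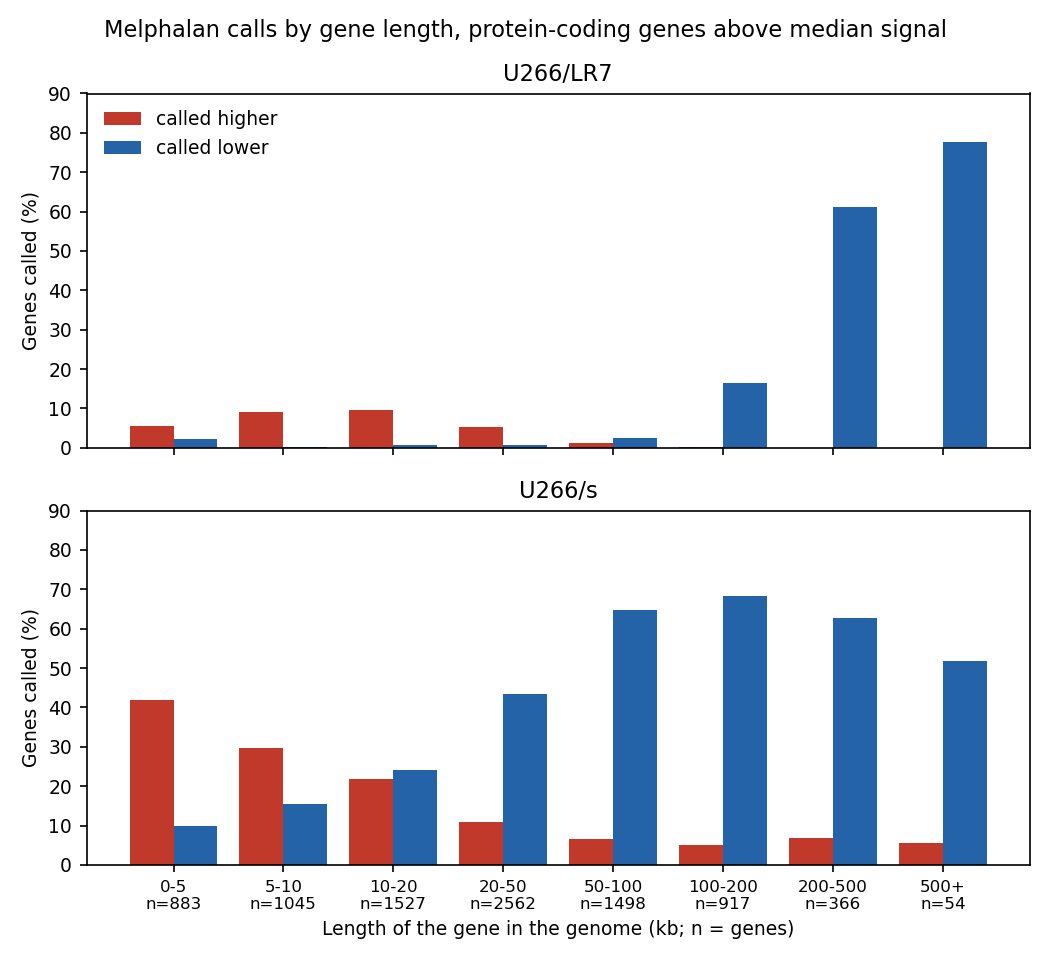
Bars give the percentage of protein-coding genes above median signal that were called higher (red) or lower (blue) with melphalan, by gene length in kb, in U266/LR7 (top) and U266/s (bottom). In U266/LR7 calls of falling genes reach 61.2% at 200 to 500 kb and 77.8% from 500 kb, and in U266/s they already reach 64.8% at 50 to 100 kb.

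The 20 longest genes above median signal, all of at least 705.7 kb, show the pattern gene by gene. Of these, 13 fell and 0 rose. DCC, a netrin receptor gene of 1195.70 kb, had signals of 10.58 on the control array, 8.96 with melphalan, 11.05 with inhibitors and 8.93 with both, a difference of -1.87 ± 0.17 log2 units (adjusted p = 0.000195). LRBA, a gene of vesicle trafficking (751.29 kb), went from 9.77 and 10.07 without melphalan to 8.40 and 8.33 with it, a difference of -1.55 ± 0.24 (adjusted p = 0.00385). PTPRG, a receptor tyrosine phosphatase gene (736.04 kb), fell as well (-1.22 ± 0.19). In each of these 3 genes the groups did not overlap, which adds little to the call with 2 arrays against 2. The exceptions included CAST, which encodes the calpain inhibitor calpastatin (813.26 kb, -0.03 ± 0.15), and RANBP2, a nuclear pore gene whose annotated span is 1122.82 kb (-0.11 ± 0.23). FHIT (1504.18 kb) stood at -0.61 ± 0.26 (adjusted p = 0.221), with 8.62 on the control array and 7.68, 7.60 and 7.48 on the others.

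Short genes that fell were mostly of a few kinds. Of 23 called lower under 10 kb, 18 were replication-dependent histone genes and 1 was the mitotic kinesin gene KIF20A. The remaining 4 were CCL3, KRT25, TMEM60 and XBP1. Of 55 under 50 kb, 20 were histone genes and 9 belonged to the G2/M list. The other 26 belonged to neither list.

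The largest fall was in PCDH9, a protocadherin gene of 927.50 kb (chr13:66302834-67230336, GRCh38). Its signal was 8.53 on the control and 8.57 on the inhibitor array, and 5.76 and 5.61 with melphalan, a difference of -2.86 ± 0.15 (adjusted p = 1.16e-05). The values with melphalan lie below the lower quartile of gene means, 5.834. SYT1, encoding the synaptic vesicle calcium sensor synaptotagmin 1 (588.03 kb), went from 9.88 and 10.53 to 7.73 and 7.71, a difference of -2.49 ± 0.21. Further large falls were in TMEM117 (-2.29, 603.31 kb), the phosphatidylinositol transfer gene PITPNC1 (-2.03, 319.98 kb) and SSBP2 (-1.98, 339.0 kb). CDKAL1, a tRNA-modifying enzyme gene (-1.92, 697.95 kb), and the exocyst gene EXOC6B (-1.88, 650.05 kb) followed. The guanine exchange factor genes VAV3 (-1.87) and TIAM1 (-1.83), the cytokine receptor gene IL23R (-1.87), the phospholipase gene PLCB1 (-1.87) and the ubiquitin ligase gene NEDD4L (-1.81) completed them with DCC, H2BC14 and XRCC4. VAV3 differed between the arrays without melphalan, at 7.68 on the control and 9.05 on the inhibitor array, against 6.04 and 6.95 with melphalan. Of the 15 largest falls 14 spanned at least 100 kb and the remaining one was the histone gene H2BC14.

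The largest rises were in shorter genes, with a median span of 16.3 kb over the top 15 and none of 100 kb or more. MUC15, a membrane mucin gene (chr11:26559032-26572263), rose from 5.65 and 5.76 to 7.62 and 7.61, by 1.91 ± 0.14 (adjusted p = 9.08e-05). SLFN5, of the interferon-inducible Schlafen family, went from 7.39 on the control and 8.11 on the inhibitor array to 9.53 and 9.51, a rise of 1.77 ± 0.22. SLFN5 was the 1 called gene of 6 measured Schlafen genes (16.7%, against 6.62% of all genes). OPN3, an opsin gene, rose by 1.60 ± 0.17, AOC2, an amine oxidase gene, by 1.49 ± 0.13, and the zinc finger gene ZNF382 by 1.42 ± 0.19. TXNIP, the thioredoxin-interacting protein gene, had 9.49 and 9.50 without melphalan, 11.32 with melphalan alone and 10.47 with melphalan and inhibitors (1.40 ± 0.20). GPR146 (1.37), TOB2, an antiproliferative gene of the BTG family (1.37), THAP2 (1.32), RFPL4B (1.26), DEDD2, a gene of the death effector domain family (1.26), and the glucocorticoid-induced TSC22D3 (1.26) completed the set. THAP2 and RFPL4B lost the call without the melphalan array, and TSC22D3 without the control and without the combination array.

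**Figure D3:**
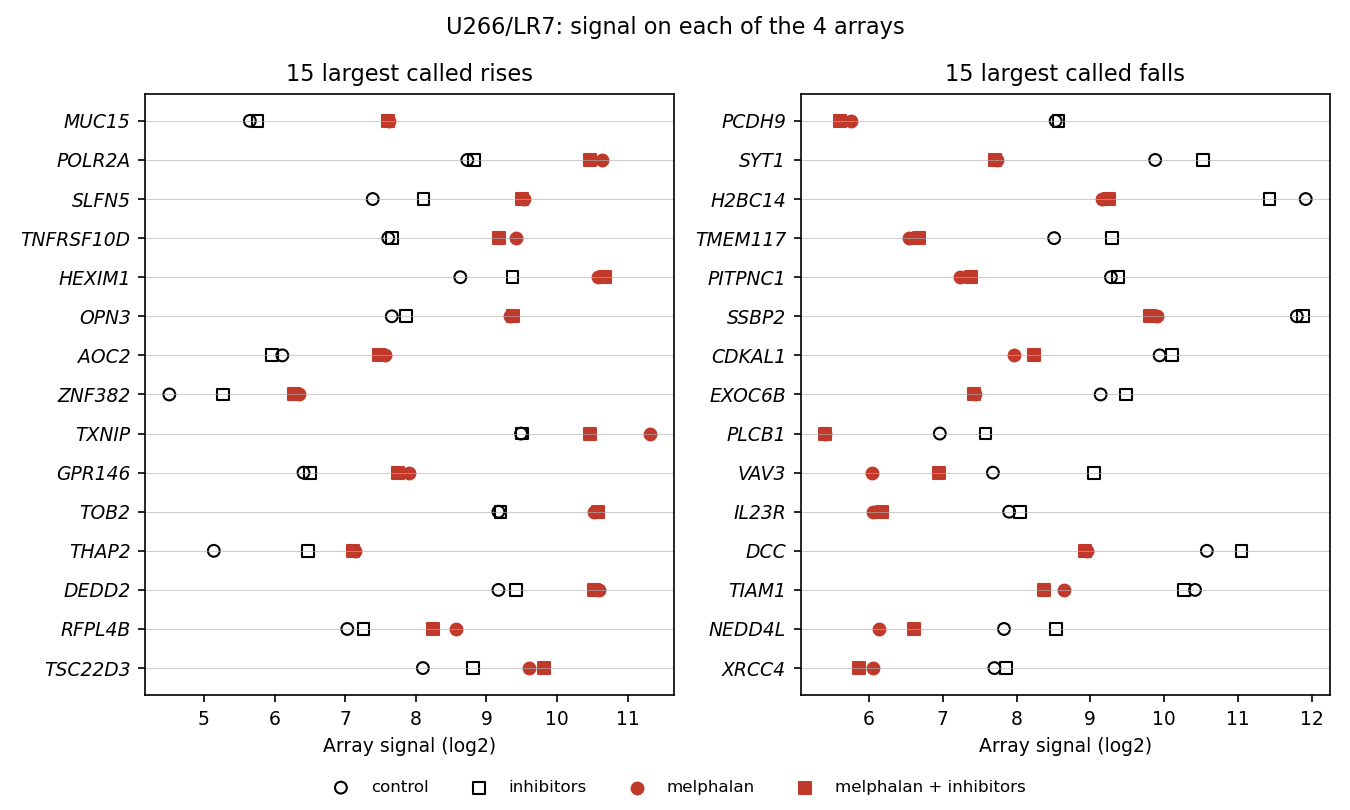
Each row is 1 of the 15 genes with the largest called rise (left) or fall (right) in U266/LR7, and each symbol is the log2 signal of 1 array; open symbols are arrays without melphalan and red symbols arrays with it. In every row both red symbols lie on 1 side of both open ones. The genes were chosen as called, with both pairs moving the same way and the largest mean differences. The separation therefore follows largely from the choice.

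A few genes of the transcription machinery were among the rises. POLR2A, encoding the largest subunit of RNA polymerase II (chr17:7484366-7514616), had signals of 8.73 on the control array, 8.82 with inhibitors, 10.63 with melphalan and 10.47 with both, a rise of 1.77 ± 0.14 (adjusted p = 0.000117). Of 13 measured subunit genes 2 rose (15.4%, against 3.02% of all genes), POLR2A and POLR2C (0.67 ± 0.13), and 0 fell, with a list median of 0.04. HEXIM1, the P-TEFb inhibitor gene (chr17:45148475-45152099), went from 8.63 and 9.37 to 10.58 and 10.68, a rise of 1.63 ± 0.21 (adjusted p = 0.00125). MEPCE, which encodes the capping enzyme of 7SK RNA, rose by 0.99 ± 0.14, and CCNT1, the cyclin subunit of P-TEFb, by 0.71 ± 0.15. These 3 were the called members of 19 P-TEFb regulators (15.8% rose, against 3.02% of all genes, and 0 fell). CDK9, the kinase of P-TEFb, stood at 0.40 ± 0.12 (adjusted p = 0.0672). Without the combination array 1 of the 3 was called, and 2 were without the control or the melphalan array. Among 20 SR splicing factor and CLK genes TRA2A (0.47 ± 0.12) was the called member (5.0%, against 6.62% of all genes).

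Replication-dependent histone genes held many of the short genes that fell. These genes supply histones during DNA replication, lack introns and end in a stem loop instead of a poly(A) tail. Of 57 measured, 20 fell (35.1%, against 3.61% of all genes) and 0 rose, with a median of -0.48 against 0.05 for all genes. The list was also described in earlier results of these data. Falls occurred in all families: 6 of 16 H2B, 4 of 14 H2A, 4 of 13 H4, 3 of 8 H3 and 3 of 6 H1 genes. On chromosome 1, 5 of 7 fell (median -1.22), and on chromosome 6, 15 of 49 (median -0.41). The chromosome 1 genes include H2AC25 and H2BC26, which lie apart from the others. They also include H4C14 and H4C15, which fell with identical values and so count 1 signal again. The median difference was -0.71 in the pair without inhibitors and -0.21 in the pair with inhibitors, and 42 of 57 were lower in both. Without the melphalan array 10 were called.

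H2BC14, an H2B gene of 0.47 kb (chr6:27815022-27815489), fell most. Its signal was 11.92 on the control and 11.43 on the inhibitor array, and 9.16 and 9.25 with melphalan, a difference of -2.47 ± 0.15 (adjusted p = 3.25e-05). H2AC20 went from 12.41 and 11.63 to 10.19 and 10.29 (-1.78 ± 0.17), and H4C2 from 9.95 and 9.30 to 7.83 and 8.22 (-1.60 ± 0.21). H1-3, a linker histone gene (-1.52 ± 0.19), and H2BC7 (-1.47 ± 0.21) fell too. In H2AC20, H4C2 and H1-3 the control array was the highest of the 4. H4C14 and H4C15 had identical values on every array (-1.22), so these near-identical genes cannot be told apart, and probes of other near-identical histone genes may share signal. Expressed histone genes that were not called included H2AC11 (10.52, 10.39, 10.47 and 10.48 on the control, inhibitor, melphalan and combination arrays; 0.02 ± 0.18) and H2BC12 (-0.28 ± 0.14). Of 22 genes for histone mRNA factors and variant histones 1 rose (4.5%, against 3.02% of all genes) and 0 fell. The rise was in ZNF473, a component of histone mRNA 3' end processing (0.64 ± 0.15).

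**Figure D4:**
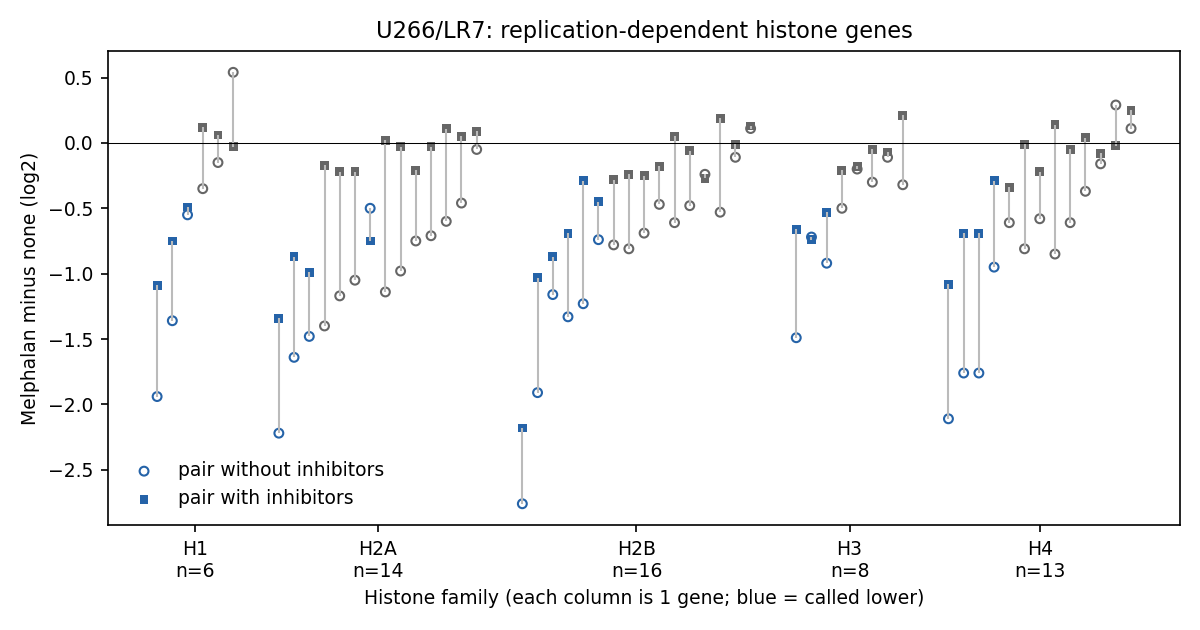
Each column is 1 of 57 replication-dependent histone genes in U266/LR7, grouped by family, with the melphalan difference in log2 units without inhibitors (circle) and with inhibitors (square); blue marks the 20 genes called lower. Circles lie below squares in most columns, as the medians of -0.71 and -0.21 do, and H2BC14 is lowest in both pairs.

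The promoters of H2B genes hold an octamer, ATTTGCAT, the binding motif of OCT1, and CCAAT boxes, bound by NF-Y. The 150 bases before the start of 3 genes that fell, H2BC14, H2BC7 and H2BC9, and of H2BC17, which was not called (-0.17 ± 0.22), are shown to compare them (RefSeq, GRCh38.p14, all on the plus strand). They lie at chr6:27814872-27815021, chr6:26199366-26199515, chr6:26251464-26251613 and chr6:27893275-27893424. Capitals mark the octamer and CCAAT, on either strand. The TATA motif TATAAA was not present in these 150 bases of any of the genes shown.
H2BC14: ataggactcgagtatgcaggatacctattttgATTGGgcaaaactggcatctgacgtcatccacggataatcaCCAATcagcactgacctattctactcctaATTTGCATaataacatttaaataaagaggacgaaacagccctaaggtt
H2BC7: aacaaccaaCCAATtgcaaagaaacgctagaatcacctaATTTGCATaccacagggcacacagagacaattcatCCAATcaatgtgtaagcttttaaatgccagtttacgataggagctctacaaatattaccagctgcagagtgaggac
H2BC9: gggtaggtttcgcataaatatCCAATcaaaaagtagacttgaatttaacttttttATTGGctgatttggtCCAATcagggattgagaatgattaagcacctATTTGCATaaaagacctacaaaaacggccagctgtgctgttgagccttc
H2BC17: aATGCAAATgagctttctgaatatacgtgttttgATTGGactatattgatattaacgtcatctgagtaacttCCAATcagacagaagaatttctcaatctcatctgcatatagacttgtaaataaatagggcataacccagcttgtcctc
In the 250 bases before the start, on either strand, the octamer was present in 13 of 16 H2B genes (81.2%), against 1.6% of 13769 protein-coding genes with a window. It was present in 4 of the 6 H2B genes that fell (66.7%). CCAAT was present in all 16 H2B genes and in 34.6% of all genes. In H2BC14 and H2BC9 the octamer ended 41 and 42 bases before the start, and in H2BC7 it ended 104 bases before it.

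Several mitotic genes fell, while several genes of the G1/S transition and replication rose. Of 57 measured G2/M genes 10 fell (17.5%, against 3.61% of all genes) and 0 rose, the median was -0.33 against 0.05 for all genes, and 40 were lower in both pairs. PLK1, a kinase of mitotic entry and spindle assembly, had 12.13 on the control and 12.33 on the inhibitor array against 11.28 and 11.23 with melphalan, a difference of -0.97 ± 0.11 (adjusted p = 0.000651). DLGAP5 (-0.90), the topoisomerase gene TOP2A (-0.88), KIF20A (-0.85), AURKA, which encodes Aurora A (-0.85), SPC25 (-0.73), the spindle checkpoint genes BUB1B (-0.71) and BUB1 (-0.69), and PRC1 (-0.56) fell as well. CCNB1, encoding cyclin B1, went from 9.70 and 9.87 to 9.18 and 9.14 (-0.62 ± 0.14, adjusted p = 0.0215). CENPE, a centromere kinesin, stood at -0.97 ± 0.27 (adjusted p = 0.0541), with 8.80 on the control and 9.70 on the inhibitor array. The count was 19 without the control array, 5 without the inhibitor array, 3 without the melphalan array and 2 without the combination array. It was 15 among genes above the median signal.

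Mitotic promoters share CCAAT boxes and the CHR element TTTGAA, through which the DREAM complex acts. Of 50 G2/M genes with a window 37 (74.0%) held CCAAT and 25 held TTTGAA on either strand, against 34.6% and 10.5% of all genes. TTTGAA was present in 6 of 9 genes that fell and 19 of 41 that were not called. The window of PLK1, which holds both in this order before the start (capitals, chr16:23678739-23678888, plus strand), is shown as an example.
PLK1: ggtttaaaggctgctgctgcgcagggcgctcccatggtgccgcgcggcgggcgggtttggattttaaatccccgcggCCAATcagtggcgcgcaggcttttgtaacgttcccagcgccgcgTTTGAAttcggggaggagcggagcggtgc

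Of 50 measured G1/S and replication genes 9 rose (18%, against 3.02% of all genes) and 1 fell, with a median of 0.18. E2F7, a repressor of E2F targets, rose from 9.31 and 9.52 to 10.20 and 10.39 (0.88 ± 0.20), and CCNE2, encoding cyclin E2, from 9.92 and 9.91 to 10.50 and 10.96 (0.81 ± 0.21). GINS3 (0.78), ORC1 (0.77), CDC6 (0.74), E2F8 (0.59), UHRF1 (0.58), the thymidine kinase gene TK1 (0.57) and RFC4 (0.42) rose as well. The fall was in PRIM2, the large primase subunit gene (-0.76), which spans 425.31 kb. The count of rises was 5 without the control array, 6 without the inhibitor array, 2 without the melphalan array and 0 without the combination array, and 5 in a fit of the U266/LR7 arrays alone. Among 20 CDK inhibitor, cyclin and RB genes CDKN2B (0.73), CCND3, CDKN1A (0.66) and CDK2 rose and CDK6 fell (-1.22 ± 0.27). CDK6 spans 231.65 kb and read 9.13 on the control, 10.63 on the inhibitor, 8.46 on the melphalan and 8.85 on the combination array. CDKN1B, encoding p27 and a target of miR-221 and miR-222, stood at -0.12 ± 0.14.

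**Figure D5:**
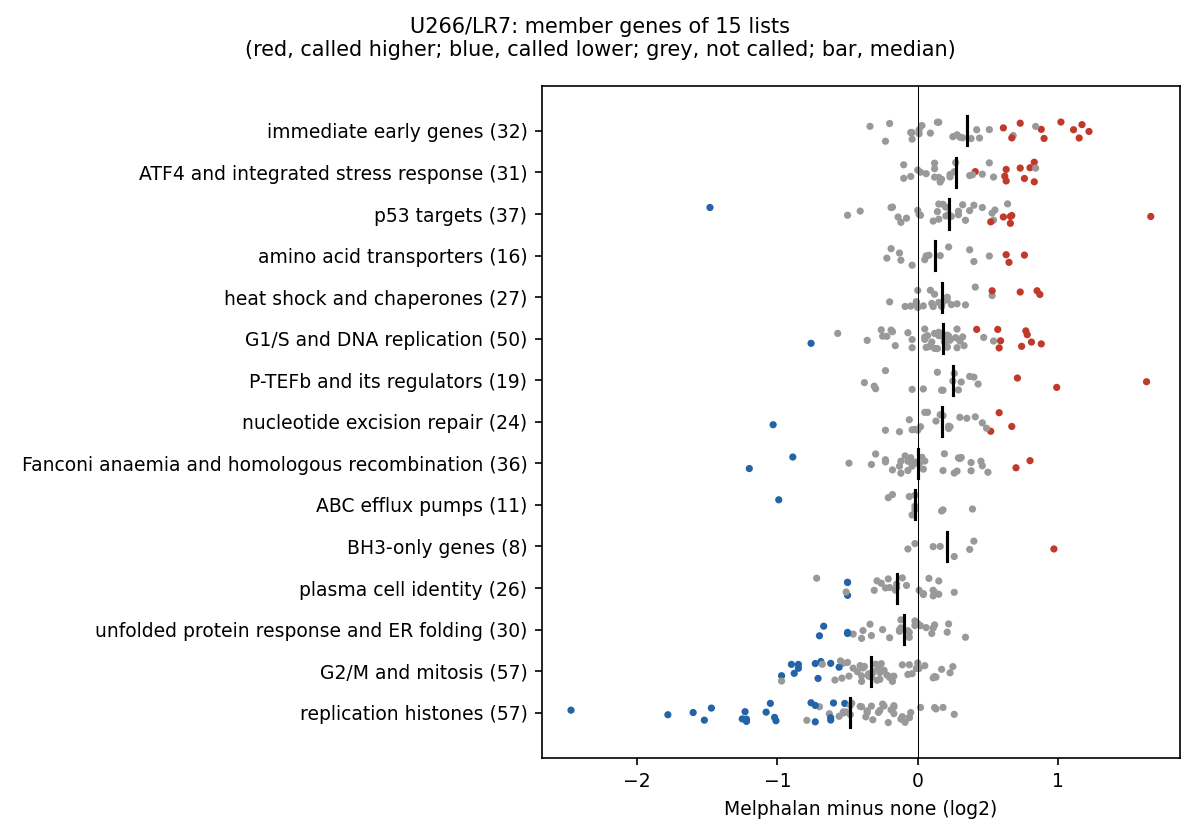
Each dot is the melphalan difference (log2) of 1 member gene in U266/LR7, for 15 lists with the number measured in brackets; red dots were called higher, blue dots lower, grey dots were not called, and the bar is the median. Replication histones (median -0.48) and G2/M genes (-0.33) lie to the left and immediate early genes (0.35) to the right.

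Of 37 measured targets of p53, 6 rose (16.2%, against 3.02% of all genes) and 1 fell, with a median of 0.22 and 22 higher in both pairs. CDKN1A, which encodes the cell cycle inhibitor p21, had 8.10 on the control array, 8.27 with inhibitors, 8.51 with melphalan and 9.17 with both, a rise of 0.66 ± 0.17 (adjusted p = 0.0448). It lost the call in 8 of 12 settings, among them median centring, quantile and cyclic loess normalization and each omission of 1 array. MDM2, the feedback ubiquitin ligase gene, stood at 0.20 ± 0.15 (adjusted p = 0.544), with 10.86, 11.14, 11.25 and 11.16 in the same order. The other rises were TNFRSF10D (1.66), the largest of the list, the damage recognition gene XPC (0.67), ACER2 (0.66), PLK3 (0.61) and DDB2 (0.52), and the fall was ASCC3 (-1.48), a helicase gene of 373.14 kb. The count of rises was 3 with median centring, 2 with quantile or cyclic loess normalization, 4 without the control array, 1 without the melphalan and 1 without the combination array.

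Among repair genes the falls were in long genes, as they were among all genes. Across the 5 lists of repair and checkpoint genes, 9 of 102 protein-coding members under 100 kb rose (8.8%) and 0 fell, against 3.9% and 0.7% of all protein-coding genes of that length. Of 17 members of at least 100 kb 0 rose and 4 fell (23.5%), against 0.1% and 17.9% of all such genes. The falls were XRCC4, which joins broken ends with ligase IV (296.93 kb, 7.70 and 7.86 to 6.06 and 5.87, -1.81 ± 0.16), RAD51B, a homologous recombination gene (863.32 kb, -1.20 ± 0.15), MNAT1, a subunit of the TFIIH kinase (235.21 kb, -1.03 ± 0.15) and the Fanconi gene FANCC (218.66 kb, -0.89 ± 0.22). The fifth member of at least 200 kb was MGMT, which reverses alkylation of guanine (303.74 kb), at 0.15 ± 0.15 and signals between 6.63 and 6.94. In nucleotide excision repair 3 of 24 rose (12.5%, against 3.02% of all genes). They were XPC (8.0 and 7.66 to 8.58 and 8.42, 0.67 ± 0.14), the TFIIH subunit gene GTF2H4 (0.58) and the lesion sensor gene DDB2 (0.52). This count was 1 with quantile or cyclic loess normalization or in the U266/LR7 arrays alone, 2 without the control array, 1 without the inhibitor array and 0 without the melphalan or the combination array. Of 36 Fanconi and homologous recombination genes FANCE (0.80 ± 0.14) and FAAP24 (0.70 ± 0.17) rose (5.6%). Of 24 base excision genes UNG rose (0.55, 4.2% of the list). Of 22 checkpoint genes RNF168 (0.72), RAD9A (0.69) and CDC25A (0.56) rose (13.6%). Over all genes 3.02% rose.

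The remaining lists together, without the histone, G2/M, repair and checkpoint lists, showed the pattern of all genes for their long members. Of 86 members of at least 100 kb 1 rose and 14 fell (16.3%, against 17.9% of all such genes). Of 881 members under 100 kb 71 rose (8.1%, against 3.9%) and 9 fell. The lists were chosen with earlier results known, and the counts are a description. The 3.02% of all genes that rose also covers long genes and genes of low signal. Above median signal, 9.0% of protein-coding genes of 5 to 10 kb, 9.56% of 10 to 20 kb and 5.31% of 20 to 50 kb rose. The list shares set against 3.02% were not matched for span or signal.

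Immediate early genes included many rises. They are induced by stress and growth signals without new protein synthesis and have short transcripts. Of 32 measured 10 rose (31.2%, against 3.02% of all genes) and 0 fell, with a median of 0.35. FOSL2 rose from 7.36 and 7.58 to 8.64 and 8.75 (1.22 ± 0.19), JUN from 7.40 and 7.80 to 8.63 and 8.92 (1.17 ± 0.29) and FOS from 7.22 and 7.68 to 8.48 and 8.72 (1.15 ± 0.28, adjusted p = 0.0337). These 3 encode subunits of AP-1, and the groups did not overlap in any of them. The orphan receptor genes NR4A2 (1.11), NR4A1 (0.90) and NR4A3 (0.88) rose, as did SNAI1 (1.02), ATF3 (0.73), CSRNP1 (0.67) and JUNB (0.61). EGR1 stood at 0.30 ± 0.26, with 8.62 and 8.55 without melphalan, 8.63 with it and 9.15 with melphalan and inhibitors. DUSP1, a MAP kinase phosphatase gene, rose by 0.89 ± 0.20 as the called member of 16 feedback genes (6.2%, against 6.62% of all genes). FOS and JUN lost the call with quantile and cyclic loess normalization, and without the control or the combination array; FOS also lost it without the melphalan array. The count of the list was 5 without the melphalan array and 1 without the combination array. In the window of FOS (chr14:75278678-75278827, plus strand), shown as that of an AP-1 gene that rose, capitals mark TGACG, the core of the cAMP response element, and TATAAA.
FOS: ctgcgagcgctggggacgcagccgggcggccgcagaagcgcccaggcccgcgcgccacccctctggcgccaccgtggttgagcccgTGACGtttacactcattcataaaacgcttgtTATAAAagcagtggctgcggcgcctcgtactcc
TGACG was present on either strand in 14 of 23 immediate early genes with a window (60.9%), in 5 of 8 that rose and 9 of 15 that were not called, against 26% of all genes.

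Several genes of amino acid supply and the integrated stress response rose. This response, carried by the factor ATF4, induces genes of amino acid synthesis and uptake. Of 31 measured 9 rose (29%, against 3.02% of all genes) and 0 fell, with a median of 0.27 against 0.05 for all genes. STC2 rose by 0.83 ± 0.16, CTH, of cysteine synthesis, by 0.83 ± 0.14, and PCK2 by 0.80 ± 0.15. SLC7A5, ATF3, ASNS, the asparagine synthetase gene (0.63), SLC3A2, PHGDH, of serine synthesis (0.62), and SHMT2 (0.41) completed them. PPP1R15A stood at 0.84 ± 0.25 (adjusted p = 0.0669), ATF4 at 0.12 ± 0.13 and DDIT3 at 0.23 ± 0.17. The count was 6 in the U266/LR7 arrays alone, 4 without the control array and 1 without the melphalan or the combination array.

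The carriers through which melphalan enters cells were among these genes. SLC7A5 and SLC3A2 encode the chains of the transporter LAT1, which takes up melphalan, and SLC1A5 encodes a glutamine carrier. SLC7A5 had 9.65 on the control array, 10 with inhibitors, 10.40 with melphalan and 10.76 with both, a rise of 0.76 ± 0.14 (adjusted p = 0.00871). SLC3A2 went from 10.95 and 11.47 to 11.78 and 11.91 (0.63 ± 0.14), and SLC1A5 from 10.31 and 10.66 to 11.05 and 11.22 (0.65 ± 0.12). In all 3 genes the inhibitor array was higher than the control array. Both melphalan arrays were higher than either, which adds little to the call with 2 arrays against 2. They were the called members of 16 amino acid transporter genes (18.8% rose, against 3.02% of all genes). The count was 1 in the U266/LR7 arrays alone and without the melphalan array, 2 without the control array and 0 without the combination array.

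Of 11 ABC efflux pump genes 1 changed (9.1%, against 6.62% of all genes). ABCC1, encoding a pump of glutathione conjugates (193.91 kb), went from 9.02 and 8.56 to 8.01 and 7.59, a difference of -0.99 ± 0.21 (adjusted p = 0.0188), and the call was lost without the control or the combination array. ABCB1, the P-glycoprotein gene, had low signal (4.81 to 4.91) and stood at -0.02 ± 0.14. Of 32 glutathione and NRF2 genes HMOX1 (0.72 ± 0.18), KEAP1 (0.55) and OSGIN1 (0.54) rose, and ME1 (220.65 kb) fell (-0.89). These were 12.5% of the list, against 6.62% of all genes. GSTP1, a glutathione transferase gene, had 12.87, 12.50, 12.85 and 12.85 on the control, inhibitor, melphalan and combination arrays (0.17 ± 0.11). MGST1 had low signal (4.33 to 4.52).

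Of 27 chaperone genes of the heat shock response 4 rose (14.8%, against 3.02% of all genes) and 0 fell. BAG3 went from 8.24 and 8.54 to 9.20 and 9.32 (0.87 ± 0.16), and DNAJB4 from 6.95 and 7.92 to 8.26 and 8.31 (0.85 ± 0.22). DNAJB1 rose by 0.73 and HSPB1 by 0.53 ± 0.09. HSPH1 stood at 0.53 ± 0.20, where the control array at 10.33 was below the other 3 (11.23 to 11.32). The count was 2 in the U266/LR7 arrays alone and without the control array, 6 without the inhibitor array, 0 without the melphalan and 1 without the combination array. In the endoplasmic reticulum list 4 of 30 fell (13.3%, against 3.61% of all genes) and 0 rose: ATF6 (-0.70 ± 0.12), DNAJC3 (-0.67), XBP1 (-0.50) and SEL1L (-0.50). ATF6 and DNAJC3 span 197.75 and 117.85 kb. The chaperone gene HSPA5 stood at -0.02 ± 0.11. This count was 1 in the U266/LR7 arrays alone, 2 without the inhibitor array, 1 without the melphalan and 0 without the combination array.

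Of the death genes few changed. Of 8 BH3-only genes, whose products neutralise survival proteins of the BCL2 family, 1 rose (12.5%, against 3.02% of all genes), namely BMF. It had 7.21 on the control and 7.58 on the inhibitor array against 8.36 and 8.37 with melphalan (0.97 ± 0.15, adjusted p = 0.00383), and the call was lost without the melphalan array. BBC3 stood at 0.40 ± 0.14 (adjusted p = 0.129), PMAIP1 at 0.37 ± 0.18 with low signal, and BCL2L11 at -0.02 ± 0.14. MCL1, a survival gene of myeloma cells, had 11.97 on both arrays without melphalan and 11.72 and 11.69 with it (-0.26 ± 0.14, adjusted p = 0.343). Among 18 other BCL2 family and caspase genes CASP2 rose (0.57 ± 0.11), 5.6% called against 6.62% of all genes. Of 16 death receptor genes TNFRSF10D, a TRAIL receptor that lacks a working death domain, rose from 7.61 and 7.66 to 9.42 and 9.18 (1.66 ± 0.15, adjusted p = 0.000207). It was the called member of that list, 6.2% against 6.62% of all genes. TNFRSF10B, the signalling receptor, stood at 0.29 ± 0.15, and FAS at -0.50 ± 0.14 (adjusted p = 0.0576). Of 34 measured targets of miR-221 and miR-222, FOS, BMF and TICAM1 (0.59) rose and 0 fell, 8.8% called against 6.62% of all genes.

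Plasma cell genes held their level with small falls. Of 26 measured 2 fell (7.7%, against 3.61% of all genes) and 0 rose, with a median of -0.15. IRF4, a factor myeloma cells depend on, had 12.56 on the control and 12.36 on the inhibitor array against 12.02 and 11.91 with melphalan (-0.50 ± 0.10, adjusted p = 0.0122). XBP1, the factor of the secretory programme, went from 12.38 and 12.02 to 11.77 and 11.62 (-0.50 ± 0.11). TNFRSF17, which encodes BCMA, stood at -0.50 ± 0.14 (adjusted p = 0.0556), and SDC1, which encodes CD138, at -0.23 ± 0.19 with 11.33 on the control and 10.61 to 10.82 on the other arrays. IRF4 and XBP1 each lost the call in the U266/LR7 arrays alone and without the melphalan or the combination array, and XBP1 also without the control array. Among 14 B-cell factor genes the repressor BCL6 rose (0.95 ± 0.15), and MEF2C (-1.26 ± 0.28), BACH2 (-0.82) and IKZF2 (-0.79), spanning 186.99, 370.32 and 152.76 kb, fell. These were 28.6% of the list, against 6.62% of all genes. CRBN, the target of immunomodulatory drugs, stood at -0.13 ± 0.18. CCL3, a chemokine gene that myeloma cells secrete, fell (-0.69 ± 0.11).

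Among further processes, 3 of 14 polyamine genes rose (21.4%, against 3.02% of all genes): SAT1 (0.88 ± 0.21), which acetylates polyamines, ODC1 (0.63) and ARG2 (0.58). The count was 0 with cyclic loess normalization and without the control or the combination array, 1 in the U266/LR7 arrays alone and without the melphalan array. Of 32 ribosome biogenesis genes NOP2 (0.71), BYSL (0.68) and POLR1C (0.51) rose (9.4%, against 3.02% of all genes). In the U266/LR7 arrays alone and without the melphalan or the combination array 0 were called. Of 35 autophagy genes the short ATG101 (12.20 kb, 0.85), ATG12 (13.37 kb, 0.63) and ATG14 (45.44 kb, 0.63) rose, and the long ATG10 (284.11 kb, -1.22) and ATG7 (303.96 kb, -0.66) fell. These were 14.3% of the list, against 6.62% of all genes. By limma 0 of 34 proteasome, 0 of 14 MYC network and 0 of 16 microRNA processing genes were called, where 2, 2 and 5 had an unadjusted p under 0.05, and MYC stood at 0.15 ± 0.17. Over all 18417 genes 3703 had an unadjusted p under 0.05 by limma. Of 58 ribosomal protein genes RPS23 rose (0.46), 1.7% called against 6.62% of all genes. Of 20 small nuclear RNA genes 4 fell, where 3.61% of all genes did. They were RNU5D-1 (-1.47 ± 0.32), RNU5E-1 (-0.99), RNU5A-1 (-0.91) and RNU2-1 (-0.78). By limma 0 of 175 small nucleolar RNA genes were called (21 at an unadjusted p under 0.05). RNU5D-1 lost its call without the control or the melphalan array, RNU5E-1 without the melphalan or the inhibitor array, and RNU2-1 in 9 of 12 settings.

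The response of U266/LR7 was set against that of U266/s by the melphalan by line term, which was called for 4394 genes (23.9%): 3290 were higher in U266/LR7 (17.9%) and 1104 lower (5.99%). In U266/s 18.4% of genes rose and 24.9% fell. The term is the U266/LR7 difference minus the U266/s difference. The U266/s arrays with melphalan had interquartile ranges of 3.25 and 3.34 log2 units, below those of the U266/LR7 arrays, and the part of this in the terms was not tested. Of the 1220 genes called in U266/LR7, 492 also had a called term. For 245 that rose and 138 that fell the term ran the same way, so the response was larger in U266/LR7 or opposite in U266/s. For 22 that rose and 87 that fell it ran the other way. The call and the term share the U266/LR7 difference, so terms of the same direction are favoured among called genes. Without the melphalan array of U266/LR7 the term was called for 2552 genes.

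Falls with melphalan reached shorter genes in U266/s. The median span of falling genes was 57.8 kb there, against 219.3 kb in U266/LR7. Above median signal 43.4% of genes of 20 to 50 kb and 64.8% of 50 to 100 kb fell in U266/s, where 0.6% and 2.5% fell in U266/LR7. The line term was higher for 46.9% and lower for 3.3% of genes of 50 to 100 kb. At 500 kb and over it was lower for 38.9% (21 of 54) and higher for 5.6%, with a median of -0.45. Differences of 50 to 100 kb genes were thus mostly less negative in U266/LR7, and many of the longest genes had more negative ones. PCDH9 (-0.33 in U266/s), DCC (0.42) and TIAM1 (0.17) were not called in U266/s and fell in U266/LR7, with terms of -2.53 (adjusted p = 8.61e-05), -2.30 (0.000146) and -2.0 (0.000172). PCDH9 read 5.57 and 5.08 in U266/s without melphalan, under the low-signal quartile of 5.834, so a fall could hardly be measured there, whereas DCC (10.28) and TIAM1 (8.21) had clear mean signals.

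Among the 15 largest rises 13 had a called line term, 12 of them higher in U266/LR7. These genes were chosen by their U266/LR7 difference, which enters the term, so the choice itself favours higher terms. MUC15 and RFPL4B had low signal in U266/s with and without melphalan (means of 4.40 and 4.84, and of 4.47 and 4.68). TNFRSF10D fell in U266/s (-0.91, term 2.57, adjusted p = 8.61e-05), as did DEDD2 (-0.80, term 2.07). POLR2A rose by 0.56 in U266/s (term 1.21, adjusted p = 0.00132). HEXIM1 rose more in U266/s, by 2.62 (term -0.99, adjusted p = 0.0299), and AOC2 alike by estimate, 1.35 against 1.49 (term 0.14 ± 0.19). The G1/S genes CCNE2 (-1.26) and CDC6 (-1.02) fell in U266/s where they rose in U266/LR7, with adjusted p of 0.000644 and 0.000226 for the terms. Over all genes 17.9% had a higher and 5.99% a lower term, and the list counts that follow were not matched for span or signal. Above median signal 37.2% of protein-coding genes of 20 to 50 kb had a higher term and 14.8% of those under 5 kb a lower one. Of 50 G1/S genes 22 had a higher term and 0 a lower one. The mitotic list had 31 of 57 higher terms and 1 lower, since 47 fell in U266/s. Immediate early genes had 10 of 32 lower terms and 2 higher, with FOS at 2.77 and NR4A2 at 2.79 in U266/s. Replication histones had 30 of 57 lower terms and 3 higher; 23 of them rose and 12 fell in U266/s. The largest terms among genes also called in U266/LR7 were SERPINH1 (2.62), TNFRSF10D, ERRFI1 (2.45), USPL1 (2.41) and DEPP1 (2.37) upward, and RNU2-1 (-2.80), RNU5E-1 (-2.76), PCDH9, PYGM (-2.48) and RNU5D-1 (-2.48) downward. PYGM, the muscle glycogen phosphorylase gene, rose in both lines, by 0.97 in U266/LR7 and 3.45 in U266/s. The U266/LR7 call on which this choice rests was lost by USPL1 in 8 of 12 settings, by DEPP1 in 5, by PYGM in 3, by ERRFI1 in 2 and by SERPINH1 in 1.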

How the data were processed

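Total RNA of 8 samples, 1 per condition, was hybridised to 1-colour Affymetrix whole-transcript arrays. The values used are the log2 signals deposited by the authors, made with Affymetrix Expression Console and RMA as the submitters' processing notes name them, with no version. The table has 33297 transcript clusters, of which 19460 have 1 gene symbol in the platform annotation, 1754 several and 12083 none there; 19429 matched RefSeq by gene ID. For 769 genes with several clusters the brightest cluster on average was kept, giving 18417 genes. Differences were fitted with limma 3.58.1 in R 4.3.3 (intensity trend, Benjamini-Hochberg adjustment over all genes at 0.05) on all 8 arrays with terms for line, melphalan, inhibitors and melphalan by line (3 residual degrees of freedom, prior 8.22). The U266/LR7 difference is the mean of its 2 matched pairs, and ± is the model's standard error. The number of arrays limits the precision. On simulated arrays of 18417 genes all changes of 1 and 2 log2 units (100 each) were recovered in U266/LR7, with 27 false calls. The simulated noise was independent and drawn from the fitted spread, with no inhibitor effect and no U266/s response. Recovery there follows largely from these settings and does not measure the precision of the real arrays.

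Named genes were the 15 largest called rises and falls that ran the same way in both pairs, up to 4 members of each list described with the largest absolute difference, the 5 largest line terms each way among genes called for both, and a set of 30 genes; other list members are named because they were called, and a few more genes (such as EGR1, CDK9, HSPA5, CAST and H2BC17) were chosen after their values were seen. Low signal means both group means under the lower quartile of gene means, 5.834. The members and the 50 gene lists were chosen with earlier results of these data known. Gene spans and promoter windows came from RefSeq (GRCh38.p14). Alternatives were other models, normalizations, filters and the omission of each U266/LR7 array.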

Additional observations from a re-analysis of the deposited data

Results flagged for a closer look

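The melphalan response differed between U266/LR7 and U266/s, by the melphalan by line term of limma, for 4394 genes and for 41 of the named genes listed here. Each value is the U266/LR7 response minus the U266/s response in log2 units, and each passed an adjusted p under 0.05. Among the largest rises in U266/LR7 the terms were 1.47 for MUC15, 1.58 for SLFN5, 1.21 for POLR2A, 2.57 for TNFRSF10D, 1.94 for OPN3, 1.99 for ZNF382, 0.94 for TXNIP, 1.28 for GPR146, 1.47 for THAP2, 1.05 for RFPL4B, 2.07 for DEDD2 and 1.11 for TSC22D3. HEXIM1, at -0.99, had the 1 lower term of that set. The largest rises and falls were chosen by the U266/LR7 difference, which enters the term. MUC15 and RFPL4B had low signal in U266/s with and without melphalan.

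Among the largest falls the terms were -2.53 for PCDH9, -0.89 for PITPNC1, -0.77 for CDKAL1, -2.30 for DCC, -1.23 for VAV3, -1.31 for IL23R, -1.09 for PLCB1 and -2.0 for TIAM1. PCDH9 and IL23R had low signal in U266/s already without melphalan, with means of 5.33 and 5.54, so falls there could hardly be measured. The largest terms of genes called in both tests were 2.62 for SERPINH1, 2.45 for ERRFI1, 2.41 for USPL1, 2.37 for DEPP1, -2.80 for RNU2-1, -2.76 for RNU5E-1, -2.48 for PYGM and -2.48 for RNU5D-1. USPL1 lost its U266/LR7 call in 8 of 12 settings, RNU2-1 in 9 and DEPP1 in 5.

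Genes of damage, cell cycle and death had terms of 0.83 (MDM2), 1.0 (BMF), 0.66 (CCNB1), 2.08 (CCNE2), 0.63 (XPC) and 0.95 (CDKN1B). MYC, with responses of 0.15 in U266/LR7 and -2.47 in U266/s, had a term of 2.62, and FOS of -1.62. Without melphalan the mean signal of MYC was 6.57 in U266/LR7 and 12.37 in U266/s. Genes of melphalan handling had terms of 1.14 (SLC7A5), 1.76 (MGST1) and -1.16 (GSTP1), and SDC1 of -1.32. MGST1 had low signal in U266/LR7 under every treatment (means of 4.35 and 4.50), against 9.70 in U266/s without melphalan.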

How the results depend on the processing

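In 10 of 12 alternative settings the number of called genes stayed within 1.5 times of 1220, but the genes were not all the same. With cyclic loess normalization 974 of the 1085 called genes were among the 1220. Leaving out 1 U266/LR7 array gave 250 to 1472 calls; for the line term (main count 4394) it gave 2552 to 5253. Genes of at least 200 kb called lower (362) numbered 142 to 411 without 1 array, and the median span of called genes stayed within 1.5 times in all 12 settings (173.7 to 322.7 kb for falls and 11.3 to 18.1 kb for rises). These span results were added after the data were seen. With 1 array left out, the lone array of a pair is assumed to vary like the others. Of 65 named genes 51 were called, 28 of these in every setting tried and 23 lost the call in at least 1; no sign of a called value reversed. TNFRSF17 gained a call in 4 settings. The cause of these shifts was not tested beyond fewer arrays or genes entering the fit. Rises made up 45.6% of calls, against 36.3% after median centring, 35.8% after quantile and 30.6% after cyclic loess normalization, 32.9% without the control, 20.3% without the melphalan and 24.4% without the combination array, and 56.5% without the inhibitor array. Background signals were not used here, and 23 called genes had low signal.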

Other observations

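Some genes outside the groups described moved with melphalan in U266/LR7, in lists whose shares called, 4.3% to 9.5%, lay near the 6.62% of all genes. IL10RA, the interleukin 10 receptor gene, rose by 0.87 ± 0.16 beside BCL6 among 23 IL6, JAK and STAT3 genes, and JAK1 and JAK2, of 234.52 and 145.56 kb, stood at -0.55 and -0.52 without passing the test. IRF7 (0.82) and IFI35 (0.55) rose and HERC6 (-0.63) and SAMD9L (-0.63) fell among 42 interferon-stimulated genes. ITGA6, a laminin receptor gene, fell by 0.70 as 1 of 20 adhesion genes. COX6C (-0.71) and NDUFV2 (-0.45) fell among 46 respiratory chain genes. ALDOC (0.53) rose and PDK1 (-0.50) fell among 33 hypoxia and glycolysis genes, and DHCR7 (0.56) rose among 19 of cholesterol synthesis.

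The microRNA genes MIR24-2 (0.66) and MIRLET7F1 (-0.71) were called among 173 of their kind, both with low signal. Of 632 long noncoding RNA genes 13 rose and 6 fell. Over all genes 6.62% were called, 3.02% higher and 3.61% lower.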
